A study of Homo sapiens with 6 samples.

Results

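The genes described here are 9 of the 60483 gene IDs in the deposited count tables: RIGI, IFIH1, DHX58, MAVS, TLR3, OAS1, OAS2, OAS3 and OASL. They were chosen by name, as the receptors of double-stranded RNA, their adaptor MAVS and the oligoadenylate synthetase family, and each was found by its Ensembl ID. RIGI is listed as DDX58 in older annotation, including GENCODE 29. Expression was measured by RNA-seq in 253J, a human bladder cancer cell line, after transfection with siRNA against FTO (siFTO, replicates 4, 5 and 6) or with control siRNA (control, replicates 1, 2 and 3). FTO is an RNA demethylase that removes the methyl mark m6A. Both groups are labelled as siRNA transfections, while the methods of the study describe shRNA vectors for FTO knockdown. The time of harvest after transfection is not given in the sources used here. All 6 libraries are from 1 cell line. Nothing in the sources says that the replicates were grown separately, so the p-values may reflect technical spread alone.

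Cells read double-stranded RNA, a common product of viral replication, with several kinds of receptor. RIG-I (RIGI), MDA5 (IFIH1) and LGP2 (DHX58) are cytosolic helicases. RIG-I and MDA5 signal through MAVS on the mitochondrial surface, while LGP2 lacks the signalling domains and modulates the other two. TLR3 binds double-stranded RNA in endosomes and signals through TICAM1. Both routes lead to the kinase TBK1, the factor IRF3 and the production of interferon. OAS1, OAS2 and OAS3 are synthetases that, once bound to double-stranded RNA, make short oligoadenylates, which act as an antiviral signal. OASL belongs to the same family but has no synthetase activity, and in human cells it is known to enhance RIG-I signalling. Most of these genes are themselves induced by interferon, through factors that bind short repeated GAAA motifs in promoters.

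Promoter sequences around that motif are shown because most of these genes are known to be induced through it. RefSeq promoters on GRCh38.p14, running from 250 bases before the gene start to 50 after it, were matched by symbol for 6 of the 9 genes (RIGI, IFIH1, MAVS, TLR3, OAS1 and OAS3). They were not matched for DHX58, OAS2 and OASL. The letters GAAANNGAAA, searched on both strands, were present in 3 of the 6 (IFIH1, TLR3 and OAS3), against 3.57% of the 35116 promoters in the table. A second motif, GGAANNGAAA, was taken from the promoters of RIGI and OAS1 after they had been read, so its presence in those 2 genes was fixed by that choice. It was present in 2.82% of all promoters. Neither motif was found in the MAVS window, and matches can overlap one another. The starts are those of RefSeq, and they lie inside the bounds that GENCODE 29 gives for the same genes further on. Each window below is written along the strand of the gene, 5′ to 3′, with the matched letters in capitals and 10 bases on each side.
RIGI, chr9:32526381-32526410, minus strand, motif ending 194 bases before the start: cggtgcggagGGAAACGAAActagcccgag
IFIH1, chr2:162318686-162318715, minus strand, motif ending 11 bases before the start: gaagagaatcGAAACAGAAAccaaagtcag
TLR3, chr4:186069142-186069171, plus strand, motif across the start and in the antisense direction: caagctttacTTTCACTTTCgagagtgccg
OAS1, chr12:112906934-112906963, plus strand, motif ending 8 bases before the start: tcccttctgaGGAAACGAAAccaacagcag
OAS3, chr12:112938321-112938350, plus strand, motif ending 133 bases before the start: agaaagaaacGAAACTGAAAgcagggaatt
OAS3, chr12:112938452-112938481, plus strand, motif ending 2 bases before the start: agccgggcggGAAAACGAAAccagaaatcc
IFIH1 held 2 further matches, which overlap each other in the antisense direction and end 149 and 143 bases before the start. A match of these letters describes the sequence and does not show that a factor binds there.

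Total counts ranged from 13162731 to 15709975 in siFTO libraries and from 10991789 to 19891269 in control libraries. FTO itself had 20.2, 20.7 and 15.7 CPM (counts scaled to library size by TMM) in siFTO replicates 4, 5 and 6, against 31.8, 21.4 and 31.2 CPM in control replicates 1, 2 and 3. It fell in siFTO by 0.57 on the log2 scale (SE 0.16, edgeR adjusted p = 0.0209). The labelled tissue was only partly visible. Of 8 urothelial markers, PPARG lay between 53.8 and 67.6 CPM in siFTO and between 60.8 and 75.0 CPM in control libraries, UPK1B was at 0 in every library, and UPK1A, UPK2, UPK3A, GATA3, TP63 and KRT5 were below 1 CPM throughout. Epithelial markers summed to 8125 to 10284 CPM in siFTO and 8989 to 11498 CPM in control libraries, led by KRT8 and KRT18. KRT7, of the same list, was at 0.73 to 0.99 CPM in siFTO and 0.65 to 1.94 CPM in control libraries.

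siFTO replicates 4 and 5 stood apart from the other 4 libraries in the transcripts given here. VIM, the mesenchymal filament vimentin, was at 636, 730 and 0.29 CPM in siFTO replicates 4, 5 and 6, and between 0.57 and 1.02 CPM in control libraries. The 11 fibroblast markers together reached 922, 1098 and 21.4 CPM in siFTO replicates 4, 5 and 6, and 15.6 to 16.7 CPM in control libraries. Of these markers 8 were higher in both replicates 4 and 5 than in each other library, with VIM, COL1A2 and COL1A1 taking most of the sum, while POSTN was at 0 in every library and COL3A1, PDGFRA and THY1 were near 0. The 15 leukocyte markers summed to 87.1, 109 and 11.5 CPM in siFTO replicates 4, 5 and 6, and to 9.82 to 10.7 CPM in control libraries. Here 4 markers were higher in both replicates than in each other library, with CD74 and HLA-DRA leading, whereas CD3E, CD3D and MS4A1 were at 0 in every library and PTPRC was at or near 0. The 4 endothelial markers summed to 0.73 to 2.62 CPM in siFTO and 0.37 to 0.94 CPM in control libraries. What these transcripts contribute to the results below was not tested, so the results for the sensor and OAS genes tested, the list medians and some of the pathway genes are also given with replicates 4 and 5 left out. That fit keeps 1 siFTO library and takes its spread from the controls.

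The genes of double-stranded RNA recognition were mostly higher after FTO knockdown, with OASL higher by a similar amount in every siFTO library and RIGI, IFIH1 and DHX58 differing between the siFTO libraries. Of the 9 genes, 8 passed the filter on low counts, and OAS2 did not. RIGI, DHX58, TLR3, OAS1, OAS3 and OASL rose in siFTO at an adjusted p under 0.05 in edgeR's quasi-likelihood test, which makes 6 of 8, while across all 14965 genes tested 19.5% were called higher and 17.9% lower. None of the 8 was called lower in edgeR with TMM scaling, in DESeq2 or in limma voom, and 1 of them, MAVS, was lower at an unadjusted p under 0.05. Upper-quartile scaling in edgeR called 5 higher and 1, MAVS, lower, beside 2647 and 2915 of all genes. The length and GC correction called 4 higher and 1, MAVS, lower, beside 2108 and 2990. DESeq2 and limma voom each called 5 of the genes higher, beside 2694 and 2690 of all genes. The median log2 fold change of the 8 tested genes was 0.59, beside 0.006 for all genes tested. In 6 tested genes every siFTO library lay above every control library, a pattern seen in 25.8% of all genes tested, and in 1, MAVS, every siFTO library lay below, as in 25.6% of all genes tested. These 6 are not the 6 called: they include IFIH1, which was not called, and leave out DHX58, whose groups overlapped. IFIH1 was apart only by a margin too small to show, at 8.84 CPM in both siFTO replicate 4 and control replicate 3. The fit with siFTO replicates 4 and 5 left out called 4 genes higher (IFIH1, OAS1, OAS3 and OASL) and none lower, beside 970 higher and 926 lower among all genes. Leaving out single libraries gave 1 call without control replicate 1 and 2 calls each without control replicates 2 and 3, when 1383, 1540 and 1794 genes of all kinds were called higher, against 2913 with all 6 libraries. Without siFTO replicate 4 it gave 3 calls of 8 tested, beside 1702 of 15407 among all genes. Without siFTO replicate 5 it gave 4 of 7, beside 2137 of 15033. Without siFTO replicate 6 it gave 6 of 9, beside 3826 of 16243. These 6 included OAS2, not tested with all 6 libraries, and not TLR3 (edgeR adjusted p = 0.0644). OAS2 passed the filter in that fit through siFTO replicates 4 and 5, where it is high, so its call is not independent of that selection.

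The plot of each gene by library shows both patterns, the even one of OASL and the uneven one of DHX58.

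**Figure D1:**
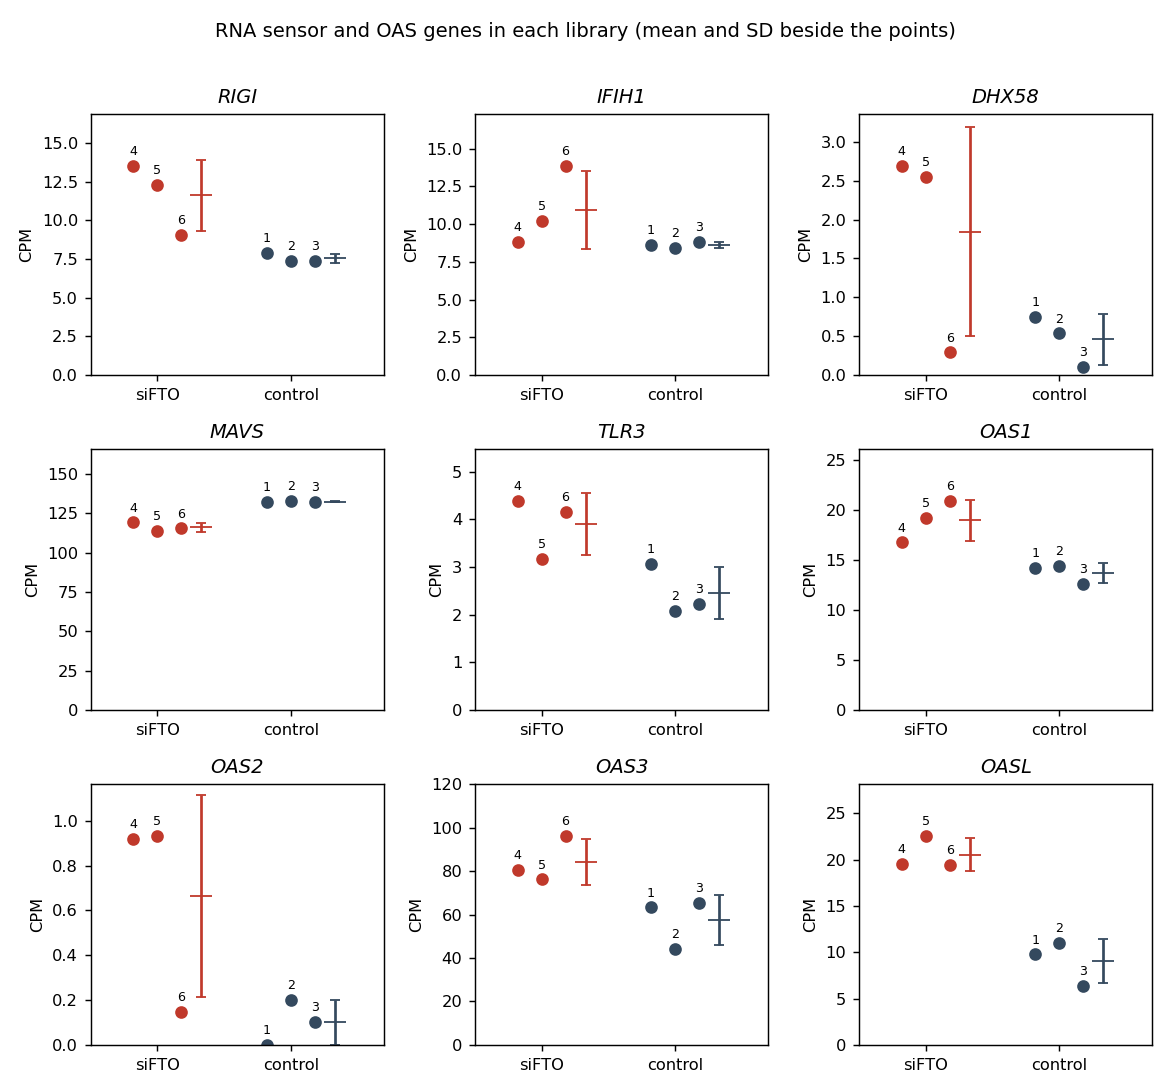
Level of each of the 9 genes (CPM on TMM-scaled library sizes, linear axes from 0) in siFTO replicates 4, 5 and 6 (red) and control replicates 1, 2 and 3 (dark blue), with the mean and SD beside the points (n = 3 each). OASL lies between 19.5 and 22.6 CPM in siFTO and between 6.36 and 11.1 CPM in control libraries, whereas DHX58 and OAS2 are high in siFTO replicates 4 and 5 alone.

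RIGI encodes RIG-I, which recognises short double-stranded RNA with a triphosphate end (chr9:32455705-32526324, minus strand, GRCh38 in GENCODE 29). It was counted 191, 198 and 124 times in siFTO replicates 4, 5 and 6, and 85, 110 and 143 times in control replicates 1, 2 and 3. Scaled for depth, RIGI was at 13.5, 12.3 and 9.04 CPM in siFTO, against 7.91, 7.37 and 7.39 CPM in control. The groups did not overlap, and siFTO replicate 6 lay closest to the controls, which were tightly grouped. The mean was 11.6 ± 2.32 CPM in siFTO and 7.55 ± 0.306 CPM in control (SD, n = 3 each). RIGI rose by 0.62 on the log2 scale, or 1.54-fold (SE 0.17, edgeR adjusted p = 0.0169). The call was lost without any 1 library other than siFTO replicate 6, at log2 fold changes of 0.50 to 0.64 and edgeR adjusted p of 0.051 (without siFTO replicate 5) to 0.0833 (without control replicate 3). RIGI differed by 0.26 when siFTO replicates 4 and 5 were both left out (edgeR adjusted p = 0.44).

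IFIH1 encodes MDA5, the sensor of long double-stranded RNA (chr2:162267079-162318703, minus strand). It was counted 125, 164 and 190 times in siFTO replicates 4, 5 and 6, and 93, 126 and 171 times in control replicates 1, 2 and 3. Its levels were 8.84, 10.2 and 13.9 CPM in siFTO, and 8.65, 8.44 and 8.84 CPM in control. The order of the siFTO libraries was the reverse of that of RIGI, with replicate 6 highest and replicate 4 level with control replicate 3 to the digits shown. IFIH1 averaged 10.96 ± 2.59 CPM in siFTO and 8.64 ± 0.199 CPM in control (SD, n = 3 each), and its log2 fold change of 0.34 did not pass the test (SE 0.18, edgeR adjusted p = 0.152). It was called higher when siFTO replicates 4 and 5 were left out, at 0.68 (edgeR adjusted p = 0.0371), whereas without siFTO replicate 6 it was at 0.13 (edgeR adjusted p = 0.547).

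The ratio of RIGI to IFIH1 varied more among siFTO than among control libraries. Per kilobase of exon, RIGI was 1.79, 1.42 and 0.77 times IFIH1 in siFTO replicates 4, 5 and 6, against 1.07, 1.02 and 0.98 times in control replicates 1, 2 and 3. The siFTO values lay on both sides of the narrow control range, so the groups overlapped on this ratio.

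DHX58 encodes LGP2 (chr17:42101404-42112733, minus strand) and was scarce in these cells. Its counts were 38, 41 and 4 in siFTO replicates 4, 5 and 6, and 8, 8 and 2 in control replicates 1, 2 and 3. In CPM it was at 2.69, 2.55 and 0.29 in siFTO, and at 0.74, 0.54 and 0.10 in control. siFTO replicates 4 and 5 were above every control library, and siFTO replicate 6 lay inside the control range, so the groups overlapped. DHX58 averaged 1.84 ± 1.35 CPM in siFTO and 0.461 ± 0.327 CPM in control (SD, n = 3 each). It rose by 2.15 on the log2 scale (SE 0.74, edgeR adjusted p = 0.0432), but limma voom did not call it (1.96, adjusted p = 0.14). The difference turned to -0.49 when siFTO replicates 4 and 5 were left out (edgeR adjusted p = 0.793). The call was also lost without control replicate 1, 2 or 3 or siFTO replicate 4, at 1.54 to 2.56 (edgeR adjusted p 0.122 to 0.23), and DHX58 fell below the filter without siFTO replicate 5. The siFTO libraries with high DHX58 are those with 922 and 1098 CPM of fibroblast markers. Whether these transcripts have a part in the DHX58 counts was not tested. In bulk RNA, fewer cells that express a gene and less of its RNA per cell cannot be told apart.

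MAVS, the adaptor that RIG-I and MDA5 share, moved the other way (chr20:3846799-3876123, plus strand). It had 119, 114 and 115 CPM in siFTO replicates 4, 5 and 6, against 132, 133 and 132 CPM in control replicates 1, 2 and 3. Every siFTO library was lower than every control library, and replicates were close within each group. MAVS averaged 116 ± 2.81 CPM in siFTO and 132 ± 0.438 CPM in control (SD, n = 3 each). The log2 fold change of -0.19 did not pass the threshold (SE 0.07, edgeR adjusted p = 0.068). It was called lower with upper-quartile scaling, at -0.21 (edgeR adjusted p = 0.0498), and after a correction for gene length and GC content, at -0.42 (edgeR adjusted p = 0.00303). With library totals alone it was -0.07 (edgeR adjusted p = 0.528). That scaling moved the median of all genes to 0.13 and gave 69.6% of all calls as higher, compared with 52.0% under TMM and 41.3% with the length and GC correction.

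**Figure D2:**
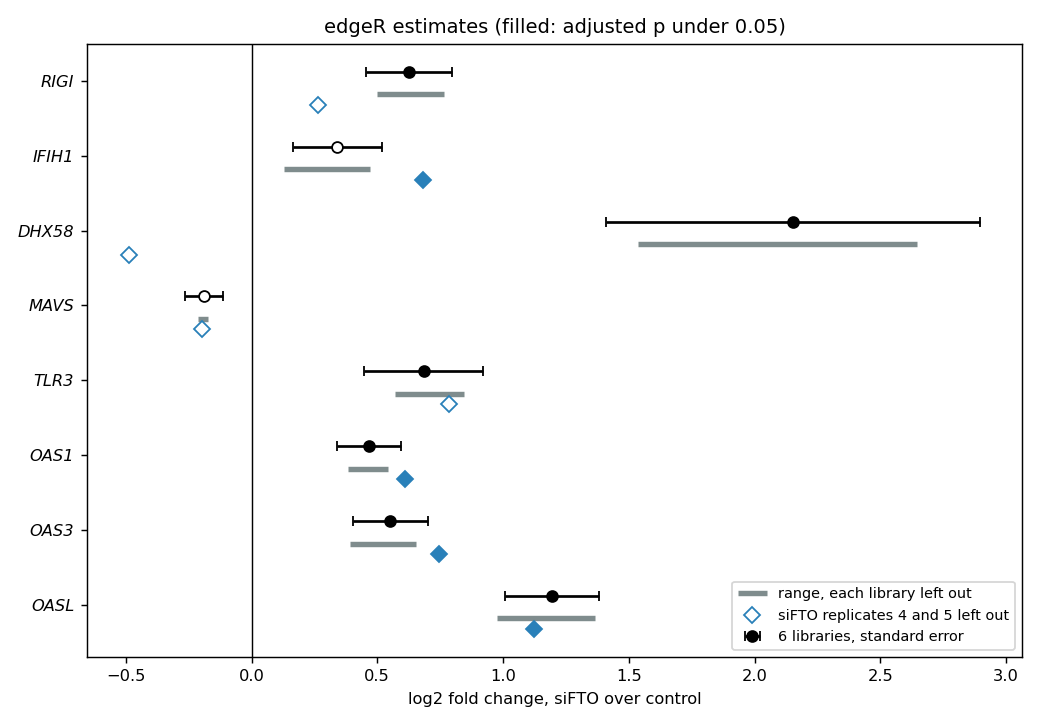
Log2 fold change of siFTO over control for the 8 genes tested (horizontal axis, edgeR), with black circles and standard errors for all 6 libraries, grey bars for the range over leaving out each library, and blue diamonds with siFTO replicates 4 and 5 left out; filled symbols have an adjusted p under 0.05. DHX58 is at 2.15 with all libraries and at -0.49 without replicates 4 and 5, while OASL is at 1.19 and 1.12.

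TLR3, the endosomal receptor of double-stranded RNA, was expressed at a low level (chr4:186069152-186088069, plus strand). It was counted 62, 51 and 57 times in siFTO replicates 4, 5 and 6, and 33, 31 and 43 times in control replicates 1, 2 and 3. This gave 4.39, 3.17 and 4.16 CPM in siFTO, and 3.07, 2.08 and 2.22 CPM in control. The groups were apart, though siFTO replicate 5 and control replicate 1 were close. TLR3 averaged 3.90 ± 0.645 CPM in siFTO and 2.46 ± 0.537 CPM in control (SD, n = 3 each). It rose by 0.68 on the log2 scale (SE 0.24, edgeR adjusted p = 0.0445). This call lay at the edge of the threshold. DESeq2 gave 0.68 (adjusted p = 0.0875), upper-quartile scaling in edgeR 0.66 (adjusted p = 0.0531), and edgeR without a filter on low counts 0.68 (adjusted p = 0.14). After the length and GC correction TLR3 was at 0.45 (edgeR adjusted p = 0.146). It was lost without any 1 library other than siFTO replicate 5, at 0.57 (without control replicate 2) to 0.85 (without control replicate 1), with edgeR adjusted p of 0.0644 to 0.166. TLR3 was at 0.79 when siFTO replicates 4 and 5 were left out (edgeR adjusted p = 0.125), so the size of the difference was as large without them.

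OAS1, OAS3 and OAS2 lie next to each other on chromosome 12. OAS1 (chr12:112906777-112933222, plus strand) encodes the smallest of the synthetases. It was counted 237, 309 and 287 times in siFTO replicates 4, 5 and 6, and 153, 215 and 244 times in control replicates 1, 2 and 3. The levels were 16.8, 19.2 and 20.9 CPM in siFTO, and 14.2, 14.4 and 12.6 CPM in control. All siFTO libraries were above all controls. OAS1 averaged 19.0 ± 2.09 CPM in siFTO and 13.7 ± 0.990 CPM in control (SD, n = 3 each), and it rose by 0.47 on the log2 scale, or 1.38-fold (SE 0.13, edgeR adjusted p = 0.0159). The rise was 0.61 when siFTO replicates 4 and 5 were left out (edgeR adjusted p = 0.0394). The call was lost after the length and GC correction, at 0.36 (edgeR adjusted p = 0.0528), without control replicate 1, at 0.48 (edgeR adjusted p = 0.0618), and without control replicate 3, at 0.41 (edgeR adjusted p = 0.069). In GENCODE 29, 92 exon bases of OAS1 (1.86% of its exons) are shared with an antisense gene, AC004551.1. The strand setting of the counting is not given in the sources used here, so reads from those bases cannot be assigned to one strand.

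OAS3 encodes the synthetase with the highest affinity for long double-stranded RNA (chr12:112938352-112973249, plus strand), and it was the most abundant of the family. It was counted 1138, 1226 and 1321 times in siFTO replicates 4, 5 and 6, and 681, 658 and 1262 times in control replicates 1, 2 and 3. In CPM these were 80.5, 76.2 and 96.3 in siFTO, and 63.4, 44.1 and 65.2 in control. Every siFTO library exceeded every control library, and control replicate 2 was the lowest. OAS3 averaged 84.3 ± 10.6 CPM in siFTO and 57.5 ± 11.7 CPM in control (SD, n = 3 each). The rise was 0.55 on the log2 scale, or 1.47-fold (SE 0.15, edgeR adjusted p = 0.016). Leaving out siFTO replicates 4 and 5 gave a rise of 0.75 (edgeR adjusted p = 0.0205). The call was lost without control replicate 1, at 0.61 (edgeR adjusted p = 0.0691), and without control replicate 2, at 0.39 (edgeR adjusted p = 0.0628).

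OAS2 (chr12:112978395-113011723, plus strand) was almost silent. It was counted 13, 15 and 2 times in siFTO replicates 4, 5 and 6, and 0, 3 and 2 times in control replicates 1, 2 and 3. The count of 0 in control replicate 1 allows a level of up to 0.279 CPM, and such limits cover counting error only. OAS2 was at 0.92, 0.93 and 0.15 CPM in siFTO, and at 0, 0.20 and 0.10 CPM in control. As for DHX58, siFTO replicates 4 and 5 were high and siFTO replicate 6 lay among the controls, so the groups overlapped. OAS2 was removed by the filter on low counts. Fitted without that filter, it gave a log2 fold change of 2.52 (SE 0.78, edgeR adjusted p = 0.0178), a value that depends on the prior count. OAS2 also passed the usual filter in 4 of the fits that leave out 1 library, through siFTO replicates 4 and 5, where it is high. It was not called without control replicate 1, 2 or 3 (edgeR adjusted p = 0.146, 0.104 and 0.163), and it was called without siFTO replicate 6, at 2.96 (edgeR adjusted p = 0.00127).

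OASL (chr12:121019111-121039242, minus strand) changed by the largest amount among the genes whose groups were apart. It was counted 276, 363 and 267 times in siFTO replicates 4, 5 and 6, and 105, 165 and 123 times in control replicates 1, 2 and 3. This corresponded to 19.5, 22.6 and 19.5 CPM in siFTO, and 9.77, 11.1 and 6.36 CPM in control. The lowest siFTO library was well above the highest control library. OASL averaged 20.5 ± 1.78 CPM in siFTO and 9.06 ± 2.43 CPM in control (SD, n = 3 each). It rose by 1.19 on the log2 scale, or 2.29-fold (SE 0.19, edgeR adjusted p = 0.00162). It was called higher in each of the 15 alternatives run, at log2 fold changes of 0.98 to 1.37 and adjusted p of 8.54e-08 (DESeq2) to 0.0263 (edgeR without control replicate 1). With siFTO replicates 4 and 5 left out it was at 1.12 (edgeR adjusted p = 0.0128).

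Set against the control mean, the genes fell into different orders among the siFTO libraries. RIGI was 0.84, 0.70 and 0.26 above the control mean on the log2 scale in siFTO replicates 4, 5 and 6, whereas IFIH1 was 0.03, 0.24 and 0.68 above it. OAS1 was 0.29, 0.48 and 0.61 above it, in the same order as IFIH1. OASL was 1.11, 1.32 and 1.10 above it. Among the 6 genes called higher, siFTO replicate 6 was the lowest siFTO library for 3 (RIGI, DHX58 and OASL) and the highest for 2 (OAS1 and OAS3). Among all 2913 genes called higher, replicate 6 was the lowest siFTO library for 49.6% and the highest for 31.3%.

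**Figure D3:**
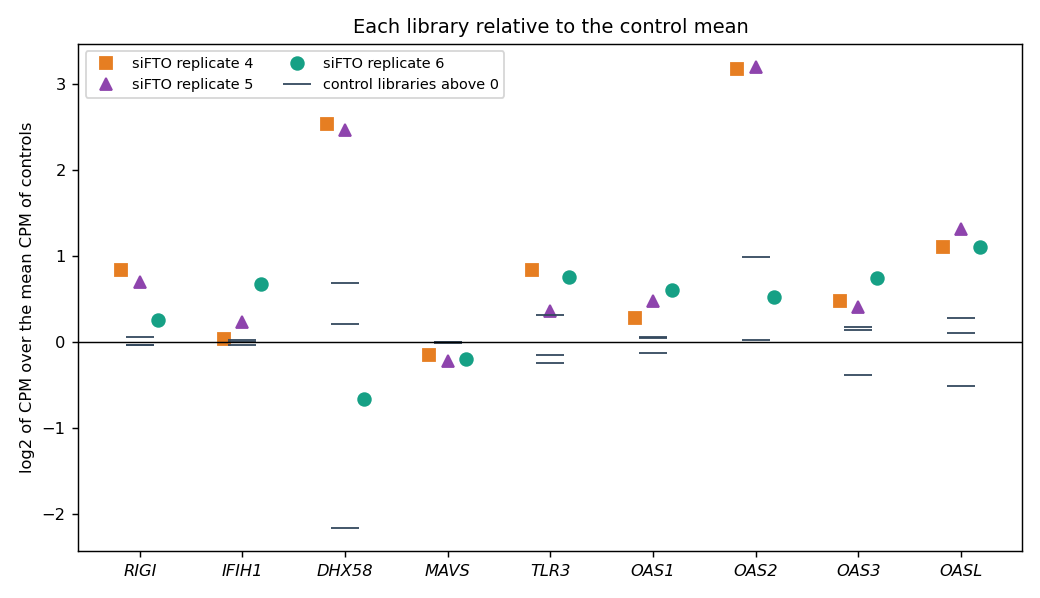
Log2 of the CPM of each library over the mean CPM of the controls, for the 9 genes; coloured symbols are siFTO replicates 4, 5 and 6 and short lines are control libraries (control replicate 1 of OAS2 is at 0 and is not drawn). DHX58 is at 2.54 and 2.47 in siFTO replicates 4 and 5 and at -0.66 in replicate 6, while OASL lies between 1.10 and 1.32 in all 3.

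Levels were compared between genes as CPM per kilobase of exon. In siFTO libraries OAS3 had the highest mean, at 10.2 ± 1.28, followed by MAVS at 9.87 ± 0.238, and their libraries overlapped. OASL came next at 5.83 ± 0.505, then OAS1 at 3.83 ± 0.422, and neither overlapped its neighbour in the order. RIGI at 2.67 ± 0.532 and IFIH1 at 2.15 ± 0.507 overlapped, as did TLR3 at 0.581 ± 0.0960, DHX58 at 0.480 ± 0.350 and OAS2 at 0.106 ± 0.0719, each with the next. In control libraries the order began with MAVS, at 11.2 ± 0.0372 CPM per kilobase, followed by OAS3 at 6.97 ± 1.42, without overlap (SD, n = 3 for each value). OAS1 at 2.78 ± 0.200, OASL at 2.58 ± 0.690, RIGI at 1.74 ± 0.0703 and IFIH1 at 1.69 ± 0.0389 followed, each overlapping the next. TLR3 at 0.365 ± 0.0798 stood alone, and DHX58 at 0.120 ± 0.0851 overlapped OAS2 at 0.0162 ± 0.0160. Thus OASL ranked above OAS1 in siFTO and level with it in control. Per kilobase, OASL was 1.64, 1.65 and 1.31 times OAS1 in siFTO replicates 4, 5 and 6, and 0.97, 1.08 and 0.71 times in control replicates 1, 2 and 3, with no overlap. The ratio of OAS3 to OAS1, at 2.88, 2.38 and 2.76 in siFTO and 2.67, 1.83 and 3.10 in control, overlapped.

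**Figure D4:**
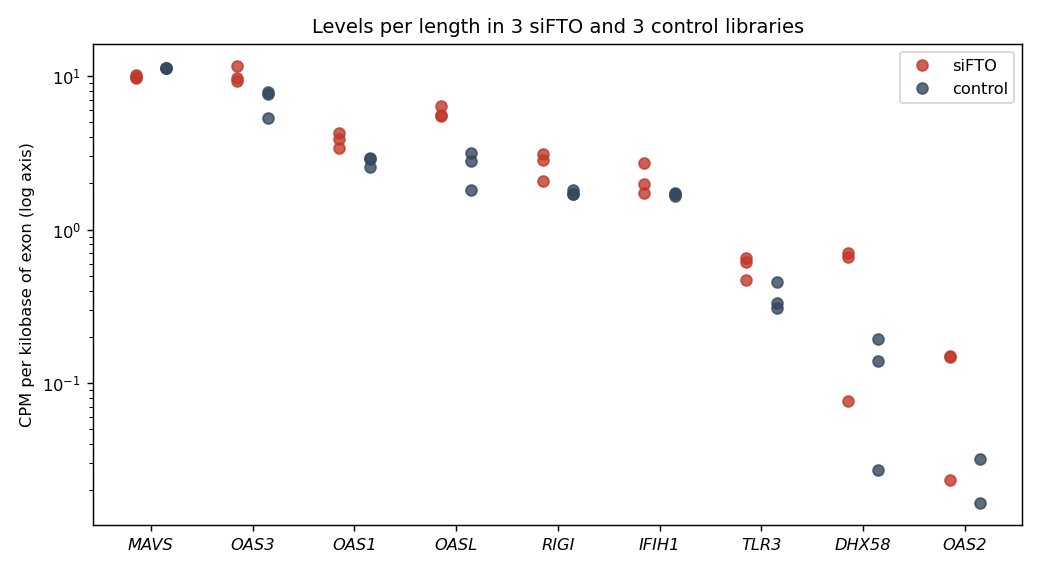
CPM per kilobase of exon (log axis) of the 9 genes in siFTO (red, left of each pair) and control libraries (dark blue), ordered by the mean of the control libraries; control replicate 1 of OAS2 is at 0 and is not drawn. MAVS and OAS3 lie near 10 in siFTO, while DHX58 and OAS2 lie below 1 in every library.

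The genes with the most similar pattern were sought among the 104 tested genes of these and the pathway lists below, by the root mean square difference of log2 values relative to the control mean over the 6 libraries (0.5 CPM added). RIGI was nearest to JAK1 (0.13), a kinase of interferon receptors, and to ITCH (0.15). IFIH1 was nearest to IFNLR1 and IFIT1 (0.15 each). TBK1 (0.15) was among the 2 genes nearest to TLR3. MAVS was nearest to PRKRA (0.04) and ILF2 (0.07), a pair of double-stranded RNA-binding protein genes with log2 fold changes of -0.23 and -0.12 that did not pass the threshold. OAS1 was nearest to TRAF3 and IFIT5 (0.13 each), and OAS3 to DHX15 (0.10) and PLSCR1 (0.11). OASL was nearest to IFI6 (0.23) and BST2 (0.28). For DHX58 the nearest genes, SOCS3 (0.45) and JAK2 (0.50), were farther away, and both were highest in siFTO replicates 4 and 5.

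Of 21 genes that carry the signal from RIG-I, MDA5 and TLR3, 5 rose and 3 fell, shares close to the 19.5% and 17.9% of all genes, with a median log2 fold change of 0.07 beside 0.006 for all genes. TRAF6 (0.63), CHUK (0.62), TBK1 (0.47) and TRAF3 (0.44), ubiquitin ligases and kinases below MAVS and TICAM1, rose with edgeR adjusted p of 0.0223, 0.00128, 0.00969 and 0.0086. TBK1 was at 39.2, 37.5 and 38.6 CPM in siFTO replicates 4, 5 and 6, against 31.4, 23.7 and 28.4 CPM in control replicates 1, 2 and 3. RNF135, a ubiquitin ligase that activates RIG-I, fell by 0.55 (edgeR adjusted p = 0.0122), STING1, the adaptor of DNA sensing, fell by 0.41 (edgeR adjusted p = 0.0374), and IRF3 fell by 0.41 (edgeR adjusted p = 0.0156). IRF3 was at 96.1, 106 and 104 CPM in siFTO and 122, 160 and 125 CPM in control. TICAM1 (0.18, edgeR adjusted p = 0.177) and IRF7 (-0.29, edgeR adjusted p = 0.107) did not pass. When siFTO replicates 4 and 5 were left out, CHUK was at 0.70 and RNF135 at -0.82, and the median of the 21 was 0.04. STING1 was then at -0.12, IRF3 at -0.38, TRAF6 at 0.42, TRAF3 at 0.41 and TBK1 at 0.48. Without control replicate 1, control replicate 2 or siFTO replicate 4 the counts higher and lower were 3 and 1 each. Of all genes 1383, 1540 and 1702 were then called higher and 1612, 1597 and 1589 lower. Without siFTO replicate 5 the counts for the 21 were 3 and 2, beside 2137 and 2035 of all genes. Without siFTO replicate 6 they were 7 and 4, beside 3826 and 2928. Library totals alone gave 7 and 2, beside 4088 and 1787.

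Among 10 genes known to restrain this signalling, 3 rose and 4 fell, beside 19.5% and 17.9% of all genes, with a median of 0.02. TNFAIP3, encoding the ubiquitin editor A20, rose by 2.23 (edgeR adjusted p = 0.00375) and CYLD, a deubiquitinase of RIG-I, by 0.85 (edgeR adjusted p = 0.00573). TNFAIP3 was at 11.4, 14.8 and 4.08 CPM in siFTO replicates 4, 5 and 6, and 2.42, 1.34 and 2.69 CPM in control, so replicates 4 and 5 were again highest. ITCH, the ligase that marks MAVS for degradation, rose by 0.51 (edgeR adjusted p = 0.00351), whereas PCBP2, which brings ITCH to MAVS, fell by 0.63 (edgeR adjusted p = 0.000765). TKFC, an inhibitor of MDA5, fell by 0.78 (edgeR adjusted p = 0.000737), NLRX1, a mitochondrial protein that binds MAVS, by 0.56 (edgeR adjusted p = 0.00395), and the ligase RNF5 by 0.43 (edgeR adjusted p = 0.006). PCBP2 was at 124, 134 and 137 CPM in siFTO and 201, 207 and 202 CPM in control. When siFTO replicates 4 and 5 were left out, TKFC was at -0.70 and PCBP2 at -0.57, and the median of the 10 was -0.04. TNFAIP3 was then at 0.92, CYLD at 0.31, ITCH at 0.46, NLRX1 at -0.48 and RNF5 at -0.31. Without control replicate 2 the count higher was 1, when 1540 of all genes were called higher. Without siFTO replicate 6 it was 4, beside 3826 of all genes. After the length and GC correction the median was -0.14.

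Of 22 other genes for double-stranded RNA-binding proteins and for the turnover of oligoadenylates, 21 were tested, 9 rose and 0 fell in edgeR, beside 19.5% and 17.9% of all genes, with 2 lower at an unadjusted p under 0.05 and 0 called lower by DESeq2 or limma voom. Their median was 0.27. This count depended on the processing: the length and GC correction gave 3 higher and 2 lower, with a median of 0.04, and upper-quartile scaling gave 8 and 2. Among all genes the correction called 2108 higher and 2990 lower, and upper-quartile scaling 2647 and 2915. PDE12, which degrades the oligoadenylates made by the OAS enzymes, rose by 0.66 (edgeR adjusted p = 0.00135), at 65.6, 62.0 and 69.3 CPM in siFTO and 40.6, 38.4 and 45.9 CPM in control. The helicases DDX21 (0.67, edgeR adjusted p = 0.00216) and DHX15 (0.49, edgeR adjusted p = 0.0064) rose, and EIF2AK2, the kinase PKR, rose by 0.39 (edgeR adjusted p = 0.022). NLRP1, an inflammasome sensor that binds double-stranded RNA, rose 8.01-fold (edgeR adjusted p = 0.00576), at 6.23, 8.46 and 1.17 CPM in siFTO replicates 4, 5 and 6 and 0.28, 0.94 and 0.67 CPM in control. With siFTO replicates 4 and 5 left out, PDE12 was at 0.73, DDX21 at 0.72 and DHX15 at 0.60 on the log2 scale. The median of the 21 was then 0.26, and NLRP1 was at 0.82. Without control replicate 1 or 2 the count higher was 3, when 1383 and 1540 of all genes were called higher. Without siFTO replicate 4 it was 4, beside 1702 of all genes, and without control replicate 3 it was 6, beside 1794. Without siFTO replicate 6 it was 8, with 2 lower, beside 3826 and 2928 of all genes.

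Interferon transcripts were close to absent. Of 20 genes for type I and type III interferons none passed the filter, and 15 were at 0 in all 6 libraries. All 20 together had 1, 10 and 0 counts in siFTO replicates 4, 5 and 6, and 0, 1 and 2 counts in control replicates 1, 2 and 3. Of the 10 counts in siFTO replicate 5, 8 were of IFNL1, a type III interferon. Without the filter 5 of the 20 were tested in edgeR and none was called. Among 18 genes of interferon receptors and JAK-STAT signalling, 5 rose and 2 fell, shares near the 19.5% and 17.9% of all genes, with a median of 0.20. Among those that rose were JAK2 (0.99, edgeR adjusted p = 0.0276), IRF9 (0.70, edgeR adjusted p = 0.0497) and JAK1 (0.54, edgeR adjusted p = 0.00632). IFNGR2, a chain of the interferon gamma receptor, fell by 0.42 (edgeR adjusted p = 0.00853), and PTPN2, a phosphatase that acts on JAK and STAT proteins, by 0.33 (edgeR adjusted p = 0.015). STAT2 (0.25, edgeR adjusted p = 0.15) and IFNAR1 (0.17, edgeR adjusted p = 0.157) did not pass. With siFTO replicates 4 and 5 left out, the median of the 18 was 0.07 and JAK2 was at 0.25. Without control replicate 3 the counts were 1 and 1, beside 1794 higher and 1759 lower of all genes. Without siFTO replicate 5 they were 2 and 1, beside 2137 and 2035. Without control replicate 1, control replicate 2 or siFTO replicate 4 they were 2 and 2, beside 1383 to 1702 and 1589 to 1612. DESeq2 and upper-quartile scaling gave 3 and 2, beside 2694 and 2488 of all genes in DESeq2 and 2647 and 2915 with upper-quartile scaling. Library totals alone gave 9 and 1, beside 4088 and 1787 of all genes. The counts were 6 and 2 after the length and GC correction, beside 2108 and 2990, and without siFTO replicate 6, beside 3826 and 2928.

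Of 32 other interferon-stimulated genes 26 were tested, 15 rose and 2 fell, beside 19.5% and 17.9% of all genes, with a median of 0.55. The largest rises were those of IFI44 (5.31, edgeR adjusted p = 0.00266), HERC5 (4.05, edgeR adjusted p = 0.00432), TRIM22 (3.85, edgeR adjusted p = 0.00246) and IFIT2 (3.11, edgeR adjusted p = 0.00655). In each of these, as for DHX58 and OAS2, siFTO replicates 4 and 5 were far above replicate 6. IFI44 was at 7.71, 8.52 and 0.73 CPM in siFTO replicates 4, 5 and 6 and 0.28, 0.13 and 0.05 CPM in control. IFIT2 was at 10.5, 10.8 and 1.09 CPM in siFTO and 0.93, 0.67 and 0.98 CPM in control. None of the 4 was called with replicates 4 and 5 left out, at 2.36 for IFI44, 1.59 for HERC5, 1.68 for TRIM22 and 0.34 for IFIT2 (edgeR adjusted p 0.0965 to 0.711). IFI27 (1.59, edgeR adjusted p = 0.000439) and IFI6 (1.26, edgeR adjusted p = 0.000783) were instead high in every siFTO library. IFI27 was at 126, 146 and 181 CPM in siFTO and 48.1, 63.0 and 39.7 CPM in control. MX1, a classical interferon-induced GTPase, fell by 0.68 (edgeR adjusted p = 0.0225), at 3.18, 2.67 and 3.13 CPM in siFTO and 5.58, 4.35 and 4.55 CPM in control. IFITM2 fell by 0.38 (edgeR adjusted p = 0.00863), and ISG15 did not pass (0.11, edgeR adjusted p = 0.661). With siFTO replicates 4 and 5 left out, IFI27 and IFI6 were at 1.85 and 1.49, MX1 at -0.61 and IFITM2 at -0.25. The median of the 26 was then 0.54. Without control replicate 1, 2 or 3 the count higher was 10, 9 and 10 of 29 tested. Of all genes 1383, 1540 and 1794 were then called higher. Without siFTO replicate 6 the count higher was 18 of 29 tested, with 3 lower, beside 3826 and 2928 of all genes. Genes that entered these fits beyond the 26 passed the filter through siFTO replicates 4 and 5, where they are high.

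**Figure D5:**
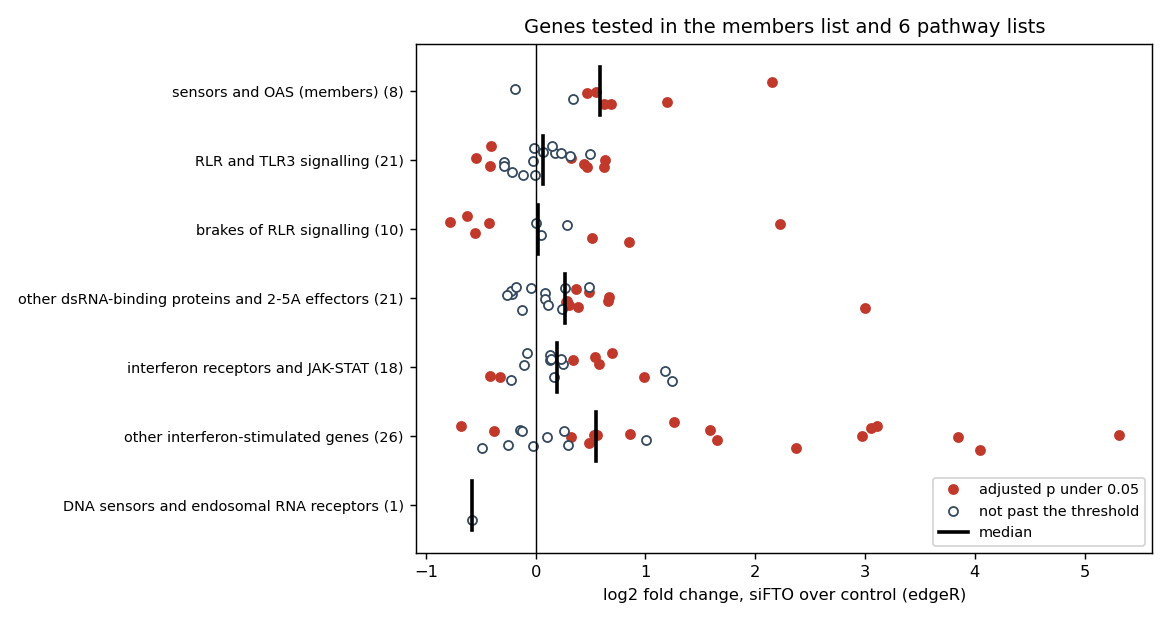
Log2 fold change of siFTO over control (edgeR) for each gene tested in the 9-gene set and in 6 pathway lists, with the number tested in brackets, filled red circles for an adjusted p under 0.05, open circles for the rest and a bar at the median. The medians are 0.59 for the sensor and OAS genes, 0.55 for other interferon-stimulated genes and 0.02 to 0.27 for the 4 lists of signalling, restraint, RNA binding and interferon receptors.

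Of 6 sensors of DNA and of single-stranded RNA, 1 passed the filter on low counts. CGAS, the cytosolic DNA sensor, had a log2 fold change of -0.58 (edgeR adjusted p = 0.131), at 2.33, 1.80 and 1.60 CPM in siFTO and 3.81, 2.88 and 2.07 CPM in control. IFI16, a nuclear DNA sensor, was at 29.6, 35.2 and 0.44 CPM in siFTO replicates 4, 5 and 6, and at 0, 0.07 and 0.10 CPM in control replicates 1, 2 and 3. AIM2, a cytosolic DNA sensor, was counted 22, 30 and 0 times in siFTO replicates 4, 5 and 6 and was at 0 in every control library. It was chosen after its values were seen. Both genes were thus high in the siFTO libraries with VIM and the other transcripts listed above, whose part in them was not tested. Without the filter, 2 of 5 genes of the list tested were called higher in edgeR, beside 3724 of 30886 among all genes. The same was true of 2 of 3 without siFTO replicate 6, beside 3826 of 16243. IFI16 and AIM2 passed the filter in that fit through siFTO replicates 4 and 5, where they are high. The count is therefore not independent of those values.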

How the data were processed

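RNA-seq libraries of 253J cells were grouped by their labels into 3 siFTO and 3 control samples. The authors deposited 1 table of raw counts of reads per gene for each library. TopHat2 2.0.11, HTSeq, hg19 and GRCh37 are named in the submitters' processing notes. The annotation release, the strand setting and other parameters were not given in the sources used here. A symbol was found for 56321 of the gene IDs. Coordinates, exon lengths and GC content were taken from GENCODE 29 (GRCh38, another build than the notes name) for the 56753 IDs found there once version numbers were dropped.

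Low-count genes were removed with filterByExpr (minimum count 10, minimum total 15). After TMM scaling, siFTO and control were compared with the two-sided quasi-likelihood test of edgeR 4.0.16 (R 4.3.3). Benjamini-Hochberg adjustment covered the 14965 genes tested, and an adjusted p under 0.05 was called. CPM use TMM-scaled library sizes, and CPM per kilobase divides them by the union of exons. Libraries of 1 group differed by more than sampling noise (chi-square per degree of freedom 3.83 to 21.0), so none was treated as a duplicate. Control replicate 2 gave 12.01 and 19.55 against control replicates 1 and 3, which gave 3.83 against each other. siFTO replicate 6 gave 14.58 and 20.99 against siFTO replicates 4 and 5, which gave 5.19 against each other. The procedure was tested on simulated data.

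All 9 sensor and OAS genes are described. From each pathway list, up to 4 genes past the threshold in each direction and up to 2 others are named, with FTO and, for each tested sensor or OAS gene, the 2 pathway genes most like it. The genes, lists and alternatives were chosen with earlier results of these data known. Alternatives were scaling by upper quartile, by DESeq2-type size factors or by library totals alone, no filter, 10 counts in every library, DESeq2 1.42.0, voom in limma 3.58.1, a length and GC correction, and leaving out each library. Leaving out siFTO replicates 4 and 5 together was chosen after seeing the data. The study's m6A-seq data are not used here. Some genes of the pathway lists are counted but not reported by name.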

Additional observations from a re-analysis of the deposited data

How the results depend on the processing

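No paired analysis was possible because the replicate numbers 1 to 3 and 4 to 6 are not shared between the groups. Among the sensor and OAS genes, OASL kept its call in all 15 alternatives, OAS3 in 13 of 15, OAS1 in 12 of 15, RIGI in 9 of 15 and TLR3 in 5 of 15. DHX58 kept it in 7 of the 13 alternatives that tested it. Leaving out 1 library at a time gave log2 fold changes of 0.50 to 0.76 for RIGI, 1.54 to 2.64 for DHX58, 0.57 to 0.85 for TLR3, 0.38 to 0.54 for OAS1 and 0.39 to 0.65 for OAS3. It gave 1 to 6 of these genes higher, 1383 to 3826 genes higher and 1589 to 2928 lower among all genes, and 18 to 45 higher and 7 to 15 lower over the 7 pathway lists, against 37 and 11 with all libraries.

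Leaving out siFTO replicates 4 and 5 together gave 970 genes higher and 926 lower, and 12 higher and 3 lower over the pathway lists. The log2 fold changes were then 0.26 for RIGI, 0.79 for TLR3 and -0.49 for DHX58, the one sign change, while IFIH1 passed at 0.68. This fit has 1 siFTO library. Library totals alone gave 1787 genes lower. Upper-quartile factors gave 0.66 for TLR3 and 1 of these genes lower, MAVS at -0.21. The length and GC correction also gave 1 lower, MAVS at -0.42, and 0.45 for TLR3 and 0.36 for OAS1. TLR3 did not pass without a filter (0.68) or in DESeq2 (0.68), and DHX58 did not pass in limma voom (1.96). The cause of these changes was not tested. Depth limits DHX58 and OAS2, with at most 41 and 15 counts in a library, and the interferon genes.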
